A study of Homo sapiens with 8 samples.

Results

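The cytosolic ribosomal protein genes are the genes whose deposited symbol is that of a core protein of the large ribosomal subunit (RPL) or of the small one (RPS), with a number, a P protein or the suffix A or X, and without pseudogenes or genes named as like another. This rule on symbols found 77 of the 59641 genes in the table, 46 for the large subunit and 31 for the small one. RNA was sequenced from 8 samples of the cell line HCT116, which comes from a human colorectal cancer and grows as an epithelium in culture. Of these, 4 had received hFGF19 (100 ng/ml, 72 hours), and 4 were controls without it. The labels do not give how long the controls were kept. FGF19, a fibroblast growth factor, is a gut hormone that the ileum releases after a meal and that signals through FGF receptors. The samples of each group carry the numbers 1 to 4, and no label says whether they were separate cultures. The p-values therefore rest on the spread among these samples alone, some or all of which may be technical.

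Ribosomal proteins and ribosomal RNA together make up the ribosome, most of the proteins in a single copy. The cell makes them in matched amounts, and their mRNAs start with a run of pyrimidines, the terminal oligopyrimidine tract, through which the mTOR kinase and the RNA-binding protein LARP1 control their translation. Their transcription follows growth signals, among them the transcription factor MYC, and dividing cancer cells spend much of their mRNA on them.

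The reads per library, inferred from the values, were 17121190 to 20752753, and may be only those assigned to genes. Values are FPKM, reads per kilobase of a gene's model, scaled to the reads of the library, so levels of different genes are compared per length. Of 8 markers of colorectal epithelium 7 averaged 1 FPKM or more. In the labels, the RNA protocol mentions an adipose source, which does not match the line, and 1 of 10 adipocyte markers reached 1 FPKM. The summed adipocyte markers were 2.36 to 3.72 FPKM in the hFGF19 libraries and 1.92 to 3.22 FPKM in the control libraries, with ADIPOQ, LEP, LPL and FABP4 below 0.1 FPKM. Hepatocyte markers, of which 5 of 10 averaged 1 FPKM or more, summed to 65.4 to 69.9 FPKM in the hFGF19 libraries and 52.1 to 58.8 FPKM in the control libraries, with APOA1, APOB, TTR and AHSG below 0.1 FPKM, and their part in the results was not tested. Of fibroblast, leukocyte and endothelial markers 1 of 10, 2 of 10 and 2 of 6 averaged 1 FPKM or more, and their sums overlapped between the groups. In a bulk sample, fewer cells of a type and less RNA per cell cannot be told apart.

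The start of the mRNA is what most of these genes have in common in sequence. RefSeq start sites on GRCh38.p14 were matched for 62 of the 77 genes by symbol. A C at the annotated start followed by at least 4 more pyrimidines stood in 46 of the 62 (74.2%), against 5.14% of the 27305 genes with a start in the same tables. The large subunit had it in 28 of 38 genes and the small subunit in 18 of 24 (75.0%), while the genes of the mitochondrial ribosome, a separate ribosome, had it in 6 of 69 (8.70%). Shown are 15 bases before and 15 bases from the start, with the pyrimidine run that begins at the start in capitals, for the genes on which the results below turn. The first 7 are genes that differed between replicate numbers, RPLP0 and RPS6 are among the most abundant, and RPL36A and RPL22 varied least with replicate number of those printed. Where a gene has several annotated starts, the start with the longest run from a C was taken, or else the first listed.
RPS21, chr20:62387088-62387117, plus strand: ggtgactagctgcttCCTTTCTCTCTCgcg
RPL10, chrX:154398362-154398391, plus strand: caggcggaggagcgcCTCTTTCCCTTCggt
RPL35, chr9:124861943-124861972, minus strand: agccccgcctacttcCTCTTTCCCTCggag
RPLP1, chr15:69452803-69452832, plus strand: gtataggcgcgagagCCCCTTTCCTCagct
RPL37A, chr2:216498829-216498858, plus strand: gcaccgcgtctcttcCTTTCTgggctcgga
RPS18, chr6:33272060-33272089, plus strand: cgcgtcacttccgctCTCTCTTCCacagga
RPL32, chr3:12841551-12841580, minus strand: gggttacgacccatcagcccttgcgcgcca
RPLP0, chr12:120201097-120201126, minus strand: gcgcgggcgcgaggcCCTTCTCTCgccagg
RPS6, chr9:19380222-19380251, minus strand: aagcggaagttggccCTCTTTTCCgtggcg
RPL36A, chrX:101390996-101391025, plus strand: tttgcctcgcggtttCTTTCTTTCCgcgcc
RPL22, chr1:6199581-6199610, minus strand: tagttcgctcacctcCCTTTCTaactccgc

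The run was 12 bases long in RPS21 and RPL10 and 6 bases in RPL37A, and RPL32 had none at the start printed. In the window from 250 bases before to 50 after the start, searched on both strands, CCGGAA, the core letters that ETS family factors bind, stood in 35 of the 62 genes (56.5%) and in 20.1% of all. AAGATGGC, letters of a YY1 site, stood in 6 (9.68%, against 3.52%), and TATAAA, the TATA box, in 5 (8.06%, against 14.0%). These matches describe the letters of the annotated windows. Among the members not matched were RPS2, RPL5, RPL30, RPL8, RPL23A, RPS20, RPL37, RPL23, RPL7 and RPS15A.

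The ribosomal protein genes were among the most abundant mRNAs of these cells. Their summed level made up 7.50% to 9.40% of all FPKM in the hFGF19 libraries (8.53% ± 0.824, SD, n = 4) and 7.45% to 8.76% in the control libraries (8.09% ± 0.580, SD, n = 4). Of the 77 genes, 76 passed the filter of a mean of at least 1 FPKM over the 8 libraries, and 66 had a mean of at least 100 FPKM. The median level of the 76 was 606 FPKM, against 13.6 FPKM for all 14100 genes that passed.

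RPL19, a large subunit protein that takes part in a bridge between the subunits, had the highest level, with a mean of 3383 FPKM over the 8 libraries. It had 3064, 3696, 3814 and 3398 FPKM in hFGF19 libraries 1 to 4 and 3019.8, 3507, 3393 and 3173 FPKM in control libraries 1 to 4. In both groups the library numbered 1 was the lowest, and the groups overlapped. RPS6, the small subunit protein that S6 kinase phosphorylates when growth factors act, followed at 2844 FPKM. RPLP0, the base of the stalk that recruits elongation factors, averaged 2319 FPKM, and its stalk partners RPLP1 and RPLP2 averaged 752 and 813 FPKM. RPL8, which lies by the peptidyl transferase centre, averaged 2266 FPKM, and RPS2, which lines the mRNA entry, 2168 FPKM. The spread over libraries of these genes was wider than the gaps between RPLP0, RPL8 and RPS2 in that order.

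Some genes lay far below the rest. RPL26, RPS15A, RPL36A, RPL17 and RPS10 averaged 10.9, 10.2, 9.51, 2.24 and 0.887 FPKM. RPL22 averaged 50.5 FPKM, closer to other members such as RPL23A at 65.4 FPKM. RPS10, a small subunit protein, missed the filter with 8 to 23 reads per library, 52 reads in all over the hFGF19 libraries and 50 over the control libraries. It averaged 0.898 ± 0.394 FPKM with hFGF19 and 0.875 ± 0.215 FPKM in controls (SD, n = 4 each), with an exact two-sided permutation p of 0.943. Ribosomes carry all of these proteins, though many cells can do without RPL22, and most ribosomal protein genes have processed pseudogene copies. The table lists 1132 pseudogene rows named after the members, for all of them but RPL28, up to 91 for RPL23A, and 89 of those rows passed the filter. The read-through rows RPS10-NUDT3, RPL17-C18orf32 and RPL36A-HNRNPH2, which contain a member, were listed at 0 in every library. No source used here gives how reads that fit several rows were counted. The levels of genes with copies or overlapping genes are therefore uncertain, and the part of this in the low levels was not tested.

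RPL41, the smallest ribosomal protein, has a gene model of 481 bases and a pseudogene row above its own level per length. It averaged 664 ± 82.2 FPKM in the hFGF19 libraries and 624 ± 51.1 FPKM in the control libraries (SD, n = 4 each), while its pseudogene RPL41P1, with a model of 81 bases, averaged 949 ± 104 FPKM with hFGF19 and 861 ± 63.4 FPKM in controls. The pseudogene RPS2P5 averaged 306 FPKM with hFGF19 and 282 FPKM in controls, and RPL13P12 averaged 289 FPKM with hFGF19 and 278 FPKM in controls. Summed over all pseudogene rows, the level was 1829 to 2214 FPKM in the hFGF19 libraries and 1741 to 2086 FPKM in the control libraries. That sum was between 3.36% and 3.76% of the members' own sum in each library.

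**Figure D1:**
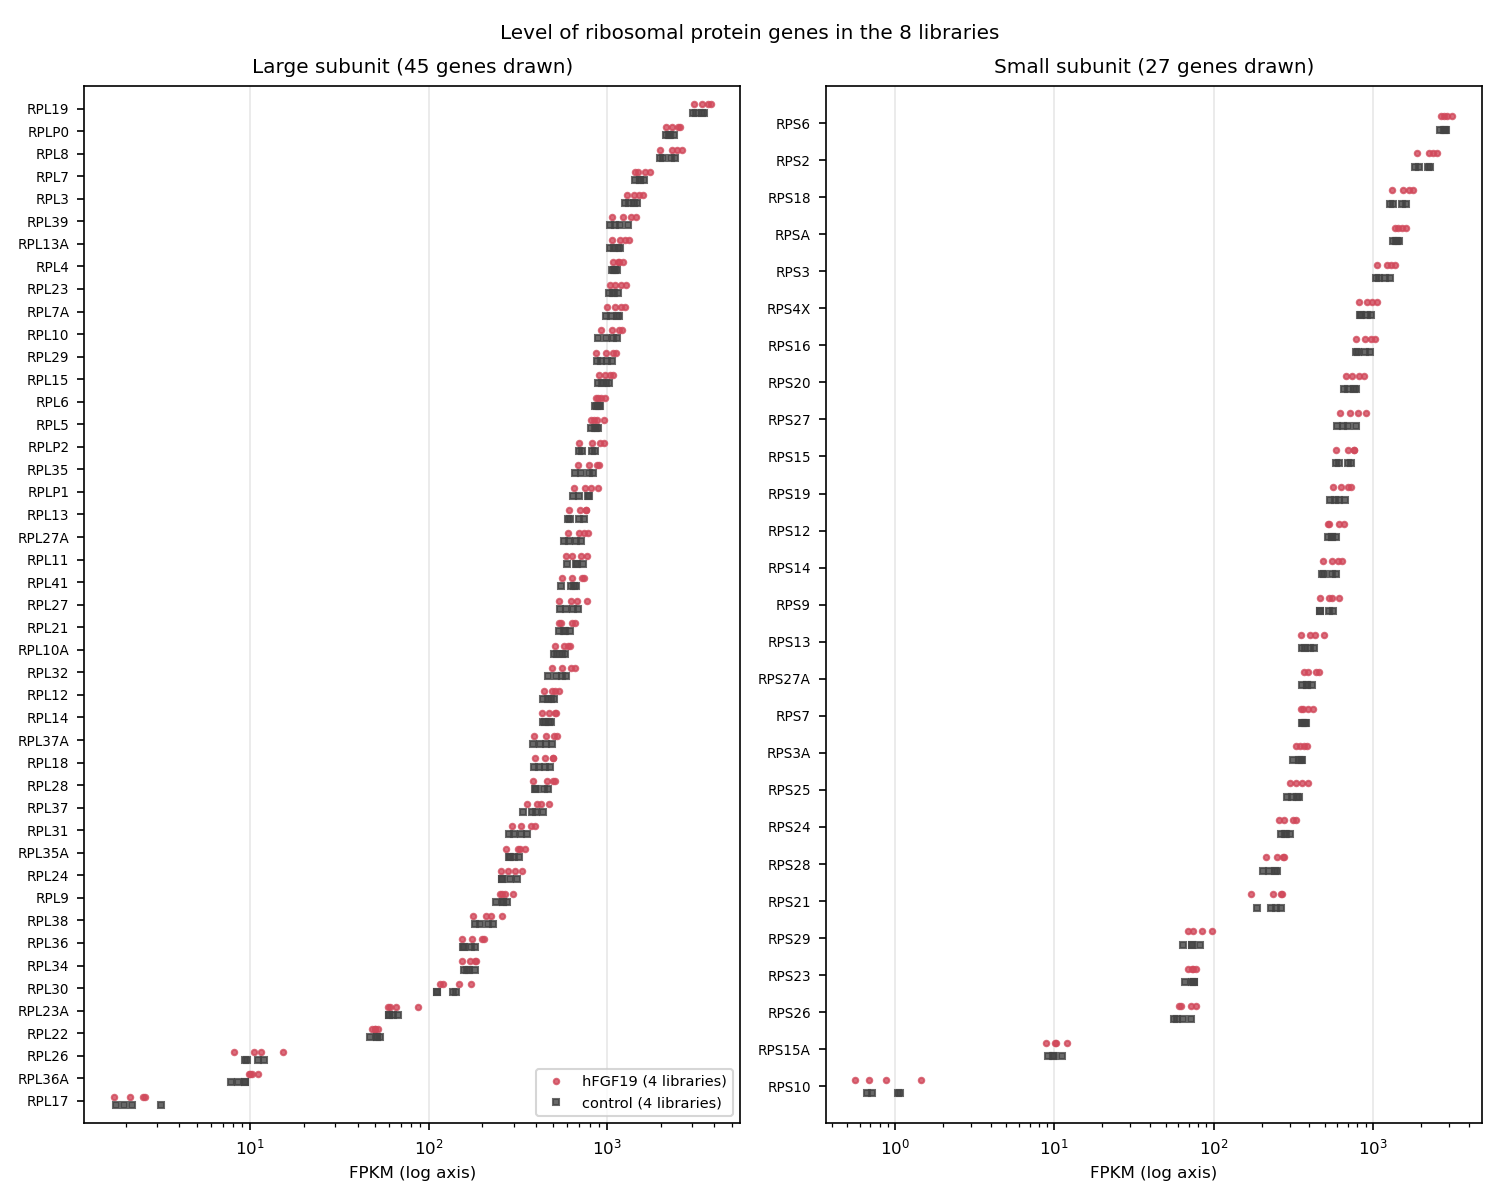
Level of 72 ribosomal protein genes in FPKM on a log axis, large subunit left and small subunit right, with the 4 hFGF19 libraries as circles above the 4 control libraries as squares. The order runs from RPL19 at a mean of 3383 FPKM to RPS10 at 0.887 FPKM, and 62 of those drawn lie at a mean of 100 FPKM or above.

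Large and small subunit mRNAs kept nearly the same proportion in every library. Summed FPKM of the large subunit over that of the small one was 1.69, 1.69, 1.67 and 1.68 in hFGF19 libraries 1 to 4 (mean 1.68 ± 0.0115, SD, n = 4), against 1.70, 1.68, 1.69 and 1.70 in control libraries 1 to 4 (1.69 ± 0.0101, SD, n = 4). The groups overlapped, and the difference of their means was smaller than the SD of either. The large subunit sum was 35511 ± 3521 FPKM with hFGF19 and 33436 ± 2332 FPKM in controls, and the small subunit sum 21116 ± 2220 FPKM with hFGF19 and 19767 ± 1494 FPKM in controls (SD, n = 4 each). With more genes on the large side, the median gene of the large subunit had 641 FPKM and that of the small subunit 558 FPKM. The mean log2 level of the large subunit genes exceeded that of the small subunit genes by 0.17 to 0.18 in the hFGF19 libraries and by 0.16 to 0.21 in the control libraries.

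The sums themselves moved together by replicate number. All members summed to 49427, 59426, 62667 and 54985 FPKM in hFGF19 libraries 1 to 4, against 48779.5, 57572, 54850.4 and 51609 FPKM in control libraries 1 to 4. The lowest library of each group was number 1 and the next lowest number 4. Within a number, the hFGF19 library was above its control library by 1.33%, 3.22%, 14.3% and 6.54%, for numbers 1 to 4. The groups overlapped, with means of 56626 ± 5740 FPKM for hFGF19 and 53203 ± 3826 FPKM for controls (SD, n = 4 each).

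**Figure D2:**
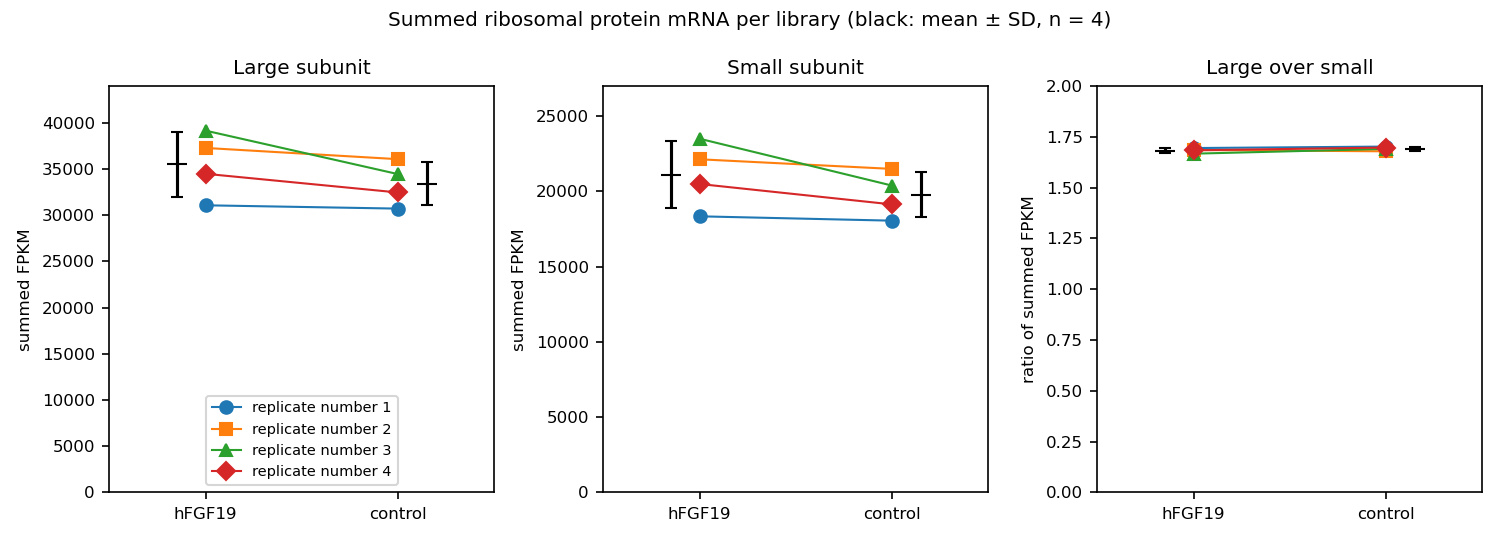
Summed FPKM of the large subunit genes (left), of the small subunit genes (middle) and their ratio (right) in each library, hFGF19 left and control right in each panel, with a line joining libraries of the same number and the mean ± SD (n = 4) in black. The libraries stand in the same order in both subunits, lowest at number 1, while the ratio stays between 1.67 and 1.70.

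Whether hFGF19 changed the ribosomal protein mRNAs was asked with a limma fit over all genes that passed the filter, on log2(FPKM + 1), a scale that understates changes of low genes. None of the 76 members passed, where 15 of the 14100 genes did (0.106%, 14 higher, 0.0993%, and 1 lower, 0.00709%), at an adjusted p (Benjamini-Hochberg over all genes) below 0.05. At an unadjusted p below 0.05 there was 1 member, RPL36A, where 4.23% of all genes passed. With replicate number as a block, 0 members passed the adjusted threshold, where 0.149% of all genes did, and 19 of the 76 passed the unadjusted one, where 6.88% of all genes did. A voom fit to the reads behind the FPKM values also called none.

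Small differences lay on the same side in most members. The log2 change was above 0 in 73 of 76 (96.1%), where 43.7% of all genes were above 0, with a median of 0.09 for the members, 0.09 for each subunit and -0.01 for all genes. It was above 0 in 72 members after scaling to TPM, in 67 after quantile normalization, and in 60 without hFGF19 library 3. The members' median was 0.05 after quantile normalization and 0.03 without that library. Within the pairs of equal number the members' median log2 difference was 0.02, 0.04, 0.19 and 0.09 for numbers 1 to 4. In all 4 pairs the hFGF19 library was the higher for 38 members (50.0%), where 6.66% of all genes had this, in 3 pairs for 23, in 2 for 12 and in 1 for 3. The members' libraries share their depth and composition, so members are not independent of each other.

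RPL36A, a large subunit protein at the exit site for tRNA, was the member with the largest log2 change and the only one whose groups did not overlap, where 3.12% of all genes did not overlap in either direction and 1.48% with hFGF19 higher. It had 11.0, 9.90, 10.2 and 9.88 FPKM in hFGF19 libraries 1 to 4, against 9.39, 7.84, 8.51 and 9.40 FPKM in control libraries 1 to 4. The lowest hFGF19 library lay above the highest control library, on 113 to 174 reads per library. Its log2 change was 0.20 ± 0.0757 (SE), with a limma adjusted p of 0.9998 and of 0.621 with the replicate block. The rows of its 19 pseudogenes averaged 2.64 FPKM in sum, and its read-through partner row was listed at 0.

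Next in size were proteins of the small subunit. RPS27, a zinc-binding protein, had 625, 802, 904 and 724 FPKM in hFGF19 libraries 1 to 4, against 592, 788, 695 and 647 FPKM in control libraries 1 to 4, with a log2 change of 0.16 ± 0.116 (SE). Each hFGF19 library was above its control of the same number, and the groups overlapped. RPS29, another zinc-binding protein, had a log2 change of 0.14 ± 0.109 (SE), and RPS28, which lies near the mRNA exit, 0.14 ± 0.0915 (SE).

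Other members had log2 changes close to 0 or below it. RPL22, a large subunit protein that binds other RNAs as well, had 50.3, 52.0, 50.1 and 48.3 FPKM with hFGF19, against 51.5, 51.7, 46.7 and 53.4 FPKM in controls, a log2 change of -0.02 ± 0.0558 (SE). RPL17, which lines the tunnel through which the new protein leaves, had 2.22 ± 0.389 FPKM with hFGF19 and 2.26 ± 0.625 FPKM in controls (SD, n = 4 each), on 21 to 37 reads per library.

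Several members have known roles outside the ribosome or in disease. RPL5 and RPL11, which with the 5S ribosomal RNA bind MDM2 and so touch p53, averaged 877 ± 60.3 and 677 ± 79.4 FPKM with hFGF19, against 856 ± 33.5 and 669 ± 56.9 FPKM in controls (SD, n = 4 each). Their log2 changes were 0.03 ± 0.0607 and 0.01 ± 0.0904 (SE), and after quantile normalization they were -0.036 and -0.031. RPL26, which binds the p53 mRNA, ranged from 8.10 to 15.2 FPKM with hFGF19 and from 9.29 to 11.96 FPKM in controls. RPS6 averaged 2894 ± 201 FPKM with hFGF19 and 2794 ± 116 FPKM in controls, with a log2 change of 0.05 ± 0.0653 (SE) that was -0.029 after quantile normalization. RPSA, also known as the laminin receptor, averaged 1488 ± 104 FPKM with hFGF19 and 1405 ± 51.3 FPKM in controls, with a log2 change of 0.08 ± 0.0621 (SE). RPS27A, made as a fusion with ubiquitin, averaged 414 ± 43.4 FPKM with hFGF19 and 387 ± 23.2 FPKM in controls, with a log2 change of 0.09 ± 0.0778 (SE). RPS19 and RPS14, whose loss underlies Diamond-Blackfan anaemia and the anaemia of the 5q deletion, had log2 changes of 0.12 ± 0.0915 and 0.11 ± 0.0944 (SE).

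**Figure D3:**
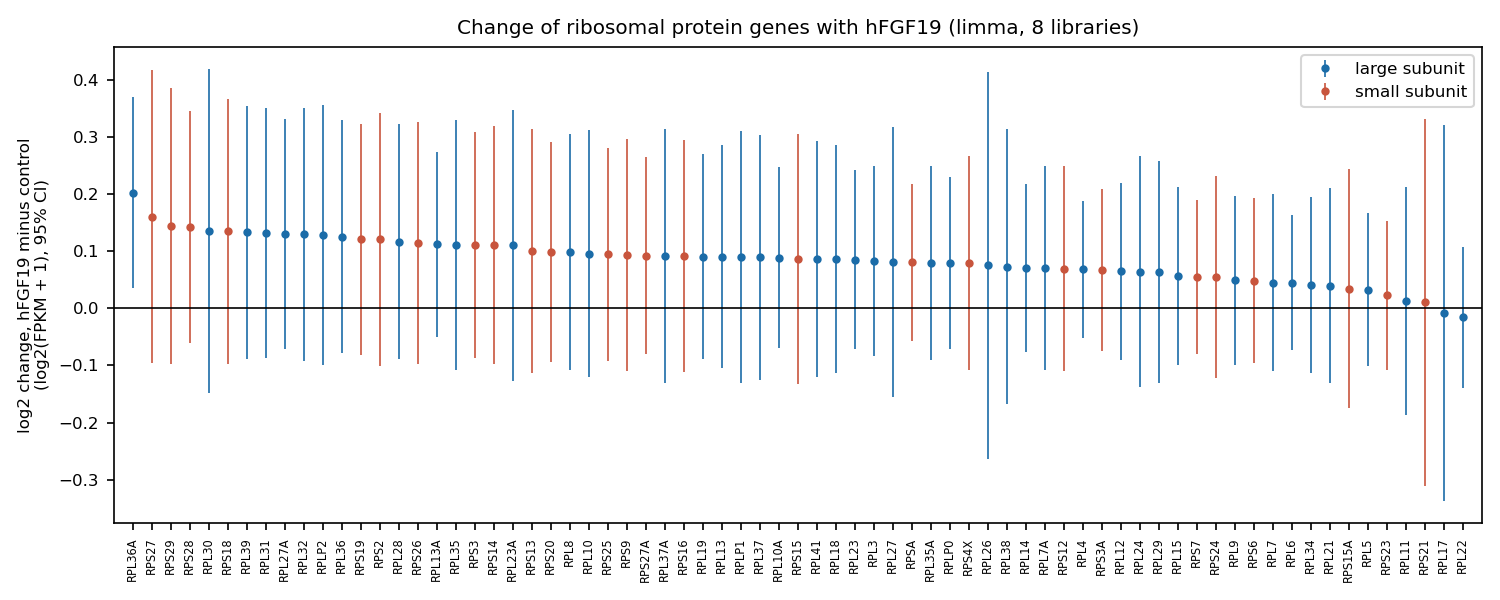
Log2 change of 71 of the members tested, hFGF19 minus control on log2(FPKM + 1), with its 95% confidence interval from limma, in order of size and with large and small subunit in different colours. Points run from 0.20 in RPL36A to -0.02 in RPL22 with both subunits mixed, and the interval lies above 0 only in RPL36A.

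Replicate number went with far more of the members' spread than treatment did. In a limma model with both, the F test of replicate number (3 degrees of freedom) passed for 8 of 76 members (10.5%), where 2.14% of all genes passed, and at an unadjusted p below 0.05 for 59 members, where 19.3% of all genes did. Of the other genes whose mean was 100 FPKM or more, 6.01% passed, and of those with at least 400 FPKM, 3.23%. The count rests on a threshold inside a dense row of values: 28 more members had an adjusted p between 0.05 and 0.1, the nearest being RPLP2 at 0.0531 and RPS28 at 0.0543, and the last member inside was RPL32 at 0.0482. Without control library 3 the count was 44 members (57.9%, against 6.47% of all genes) and without hFGF19 library 2 it was 19 (25.0%, against 7.77%). Without hFGF19 library 3 or 4 it was 1 (1.32%, against 0.128% and 0.962% of all genes). The members' share was below that of all genes in other settings. It was 2 without control library 2 (2.63%, against 3.52%), 0 without hFGF19 library 1 (against 0.00707%) or control library 1 (against 0.149%), and 1 without the treatment term in the model (1.32%, against 1.74%). Without control library 4 no gene passed at all. A stricter filter at a mean of 5 FPKM gave 44 of 75 members (58.7%, against 11.7% of all genes) and voom on the reads gave 42 (55.3%, against 10.7%).

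Of the 8 members that passed, 6 belong to the large subunit and 2 to the small one. RPS21, a small subunit protein, had 171, 265, 270.0 and 235 FPKM in hFGF19 libraries 1 to 4, against 189, 264, 245 and 228 FPKM in control libraries 1 to 4, with an adjusted p of 0.0323 for replicate number by limma. Number 1 was lowest in both groups, and treatment groups overlapped, with a log2 change of 0.01 ± 0.145 (SE) that was -0.0023 after scaling to TPM. RPL30, which in yeast also binds its own transcript, had 117, 147, 173 and 121 FPKM in hFGF19 libraries 1 to 4, against 112, 143, 137 and 112 FPKM in control libraries 1 to 4. Here numbers 2 and 3 were above numbers 1 and 4 in both groups. RPL10, which joins late and helps to make the subunit ready for translation, had 931, 1169, 1212 and 1062 FPKM in hFGF19 libraries 1 to 4, against 888, 1133, 1088 and 982 FPKM in control libraries 1 to 4. In RPL10, too, numbers 1 and 4 were the lowest in both groups.

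The other 5 showed numbers 2 and 3 above numbers 4 and 1. RPLP1 of the stalk had 649.8, 818, 886 and 755 FPKM in hFGF19 libraries 1 to 4, against 645, 791, 783 and 693 FPKM in control libraries 1 to 4. RPS18, in the head of the small subunit, had 1316, 1698, 1784 and 1539 FPKM in hFGF19 libraries 1 to 4, against 1276, 1613, 1531 and 1339 FPKM in control libraries 1 to 4. In both genes number 1 was lowest and number 4 next in each group. RPL35, beside the exit of the tunnel, averaged 816 ± 99.5 FPKM with hFGF19 and 754 ± 78.2 FPKM in controls (SD, n = 4 each). RPL37A, a zinc-binding protein of the large subunit, averaged 467 ± 58.4 FPKM with hFGF19 and 438 ± 46.4 FPKM in controls. For RPL32, another large subunit protein, the averages were 585 ± 77.0 FPKM with hFGF19 and 533 ± 51.4 FPKM in controls. In RPL35, RPL37A and RPL32 the adjusted p for replicate number by limma was 0.0463, 0.0476 and 0.0482.

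The same order ran through the whole set. Numbers 1 and 4 lay below and numbers 2 and 3 above the gene's mean in 68 of 76 members (89.5%), where 27.3% of all genes did so. The median deviation from the gene's mean was -0.16, 0.10, 0.11 and -0.04 on the log2 scale for numbers 1 to 4. The highest of the 8 libraries was hFGF19 library 3 in 71 of 76 members, where it was for 17.8% of all genes. The lowest was library 1 of either group in 68 of 76, in control for 46 and in hFGF19 for 22, where it was so for 25.5% of all genes.

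Of each member's sum of squares, the median held by replicate number was 76.0%, by treatment 11.9% and by the remainder 9.90%, where the medians over all genes were 53.4%, 6.86% and 30.5%. Replicate number has 3 degrees of freedom and treatment 1, and per degree of freedom replicate number held more in 70 of 76 members (92.1%), where it did in 67.5% of all genes. In RPS21 replicate number held 94.98%, in RPL10 87.7% and in RPL11 87.3%. In RPL36A it held 27.5%, less than treatment did, and in RPL22 40.6%. Both subunits gave the same picture, with 42 of 46 large and 28 of 30 small subunit genes holding more per degree of freedom by number.

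**Figure D4:**
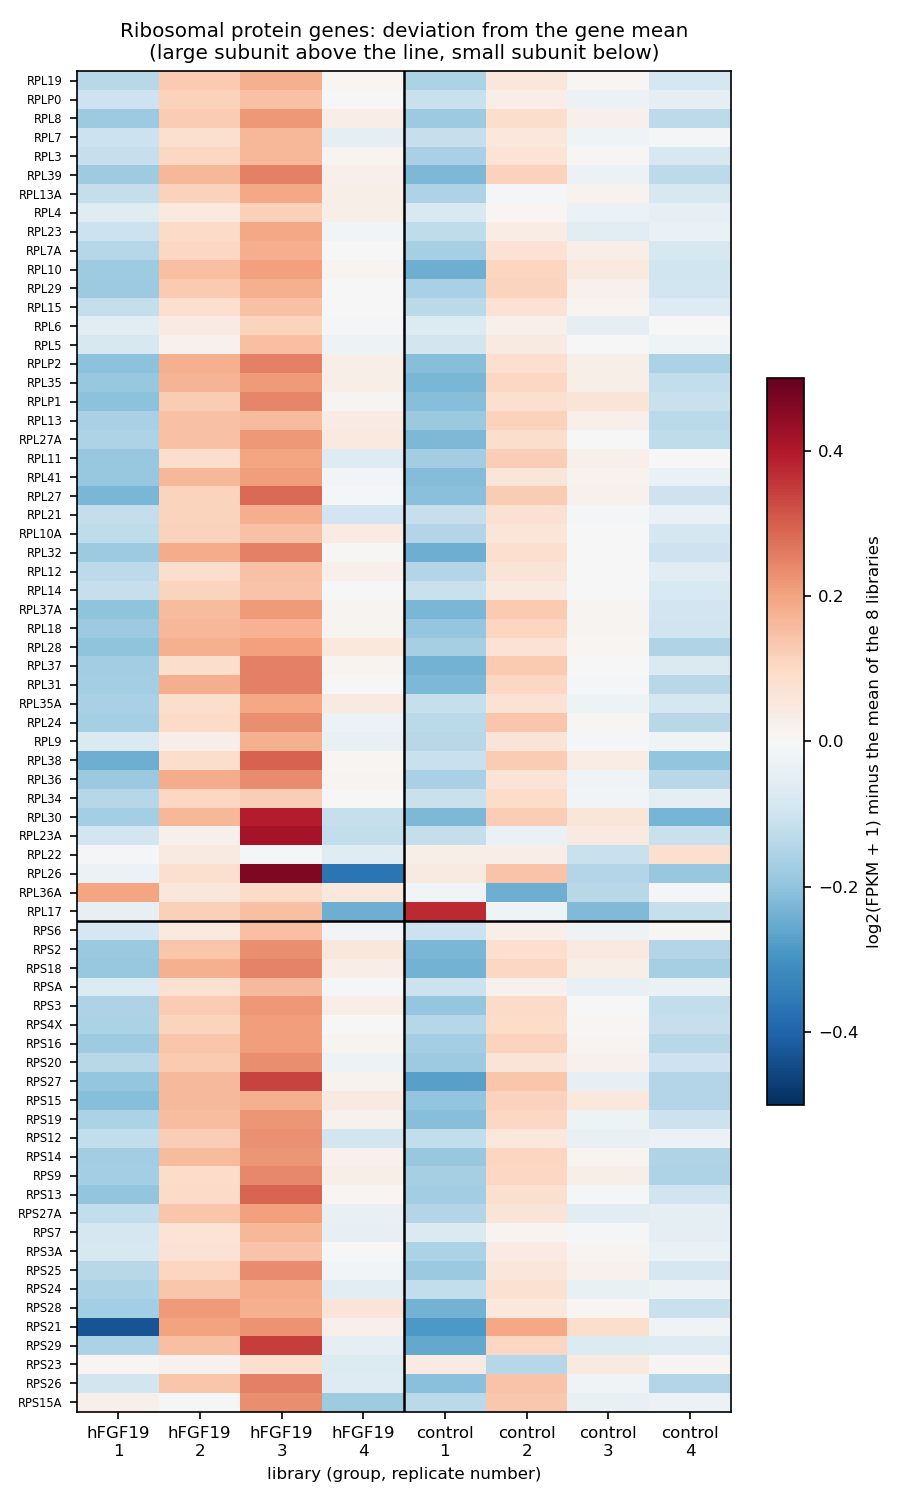
Deviation of log2(FPKM + 1) from the gene's mean over the 8 libraries for 71 of the members tested, hFGF19 libraries 1 to 4 left and control libraries 1 to 4 right, large subunit above the line, each ordered by level. Columns of one colour run down nearly all members, with hFGF19 library 3 the highest in 67 of those drawn and a library numbered 1 the lowest in 63.

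**Figure D5:**
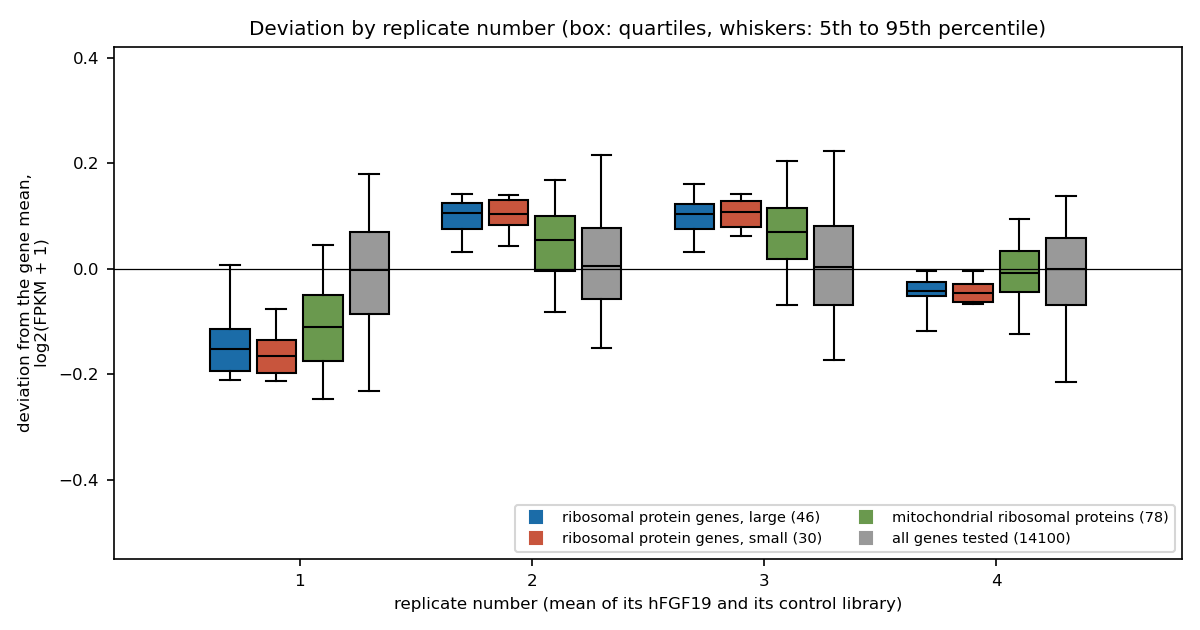
Deviation from the gene's mean by replicate number, averaged over its hFGF19 and its control library, for large subunit genes, small subunit genes, mitochondrial ribosomal proteins and all genes tested (box: quartiles; whiskers: 5th to 95th percentile). Both subunits sit below 0 at numbers 1 and 4 and above 0 at numbers 2 and 3, with members' medians of -0.16, 0.10, 0.11 and -0.04, while the boxes of all genes straddle 0.

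Members differed in how much they varied. The coefficient of variation over the 8 libraries was 4.18% in RPL6, 4.26% in RPL22 and 4.57% in RPL4, all of the large subunit, and 19.7% in RPL26 and 21.5% in RPL17, which had 21 to 158 reads per library. RPL4, at the tunnel, had 1084, 1169, 1229 and 1154 FPKM in hFGF19 libraries 1 to 4, against 1072, 1138, 1108 and 1099.9 FPKM in control libraries 1 to 4. Control library 1 was its lowest and hFGF19 library 3 its highest. Across the 76 members, Spearman's rho of this variation was -0.26 with the length of the gene model and -0.30 with mean level. It was 0.55 with the log2 change, all over the same 8 libraries. The rho of the log2 change with a member's deviation in number 1 was -0.59. Variation, log2 change and deviation are all taken from the same 8 values of a gene, and members share the libraries' pattern. The last 2 values of rho therefore cannot tell treatment from that shared pattern.

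The other genes of the pathway gave no call for hFGF19 either, in the limma fit or with the block, in any of 8 lists. Of all genes 0.106% passed in the fit and 0.149% with the block, so lists of 2 to 89 genes can readily hold none. FAU, which makes a core protein as a fusion with a ubiquitin-like protein, averaged 97.9 ± 11.6 FPKM with hFGF19 and 92.5 ± 10.2 FPKM in controls (SD, n = 4 each), with a log2 change of 0.08 ± 0.0982 (SE). Of the ribosomal protein paralogs, 5 of the 6 tested had a log2 change above 0, with a median of 0.03. RPL22L1, the paralog of RPL22, averaged 15.9 ± 0.989 FPKM with hFGF19 and 14.4 ± 1.60 FPKM in controls. Other mRNAs known to carry a pyrimidine tract, such as translation elongation factors, were above 0 in 15 of 19, with a median of 0.03. None of these 19 passed for replicate number, where 2.14% of all genes did, so a list of this size can readily hold none. At an unadjusted p below 0.05 in that F test, 6 passed (31.6%, against 19.3% of all genes). In 13 of the 19, hFGF19 library 3 was the highest (68.4%, against 17.8% of all genes). The host genes of small nucleolar RNAs were above 0 in 7 of 9, with a median of 0.04. The pseudogenes of the members were above 0 in 69 of 89, with a median of 0.08, and mitochondrial ribosomal proteins in 53 of 78, with a median of 0.04. Of all genes, 43.7% were above 0, with a median of -0.01.

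Genes that build ribosomes or control the tract mRNAs were split. Ribosome biogenesis factors were above 0 in 16 of 35, with a median of -0.01, and genes of the mTOR pathway in 7 of 14, with a median of 0.01, against 43.7% and -0.01 for all genes. In each of these lists 1 gene passed for replicate number (2.86% and 7.14%), where 2.14% of all genes did. MYC had 165, 130.0, 109 and 156 FPKM in hFGF19 libraries 1 to 4, against 161, 112, 128 and 153 FPKM in control libraries 1 to 4, with an adjusted p of 0.0430 for replicate number by limma. LARP1 had 254, 199, 153 and 230.3 FPKM in hFGF19 libraries 1 to 4, against 256, 171, 193 and 248 FPKM in control libraries 1 to 4, with an adjusted p of 0.0430 by the same test. Both were higher in numbers 1 and 4 than in numbers 2 and 3 in each group, while most ribosomal protein genes were lower. Not all genes of these lists shared this. In the biogenesis list 5 of 35 and in the mTOR list 2 of 14 had the members' order (14.3% each). Over all genes, 27.3% had the members' order. The order was more common in the other lists. It stood in 2 of 2 fusion genes such as FAU and in 10 of 19 other tract mRNAs. It also stood in 7 of 9 host genes of small nucleolar RNAs and 3 of 6 paralogs. For mitochondrial ribosomal protein genes it was 32 of 78 (41.0%), and for pseudogenes 34 of 89 (38.2%). The share of all genes with the order of MYC and LARP1 was not counted, and a link to the members was not tested. Of the 78 mitochondrial ribosomal protein genes, only MRPL19 passed for replicate number (1.28%, against 2.14% of all genes), with an adjusted p of 0.0434 by limma. It averaged 38.4 ± 5.80 FPKM with hFGF19 and 35.8 ± 5.11 FPKM in controls (SD, n = 4 each). At an unadjusted p below 0.05 in that limma test, 30 of the 78 passed (38.5%, against 19.3% of all genes). A library numbered 1 was the lowest in 48 of the 78 (61.5%, against 25.5% of all genes). What set the libraries of one number apart is not given in the labels and was not tested.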

How the data were processed

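The authors deposited 1 table of FPKM values for 8 poly(A) RNA libraries. Per the submitters' processing notes, HISAT2 2.0, StringTie 1.3.0 and build hg19 were used; the counting step, annotation release and strand setting are not given in the sources used, and start sequences are from RefSeq on GRCh38.p14. Low FPKM values were whole multiples of 1 step per gene, from which a total per library and a length per gene were inferred to give back the reads. With these, 99.993% of values above 0 lay within 0.02 reads of a whole number. Lengths were chosen to meet this limit, so that share is no separate check. PCR copies are not known, so reads are not independent molecules. All columns were matched to samples by name.

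The genes whose mean reached 1 FPKM were fitted with limma 3.58.1 (R 4.3.3, variance trend, two-sided, all 8 libraries) on log2(FPKM + 1) by treatment; a second fit held treatment and replicate number, with an F test of the number. Adjustment was by Benjamini-Hochberg over all genes tested. The fits were tested on simulated data. Both groups share the replicate numbers in the labels, and libraries were paired by number on these labels alone. Deviations from the group mean correlated at 0.30, 0.17, 0.17 and 0.11 within numbers 1 to 4. Between different numbers the correlations were -0.45 to 0.44 with a median of -0.17. Thus at least 1 pair of different numbers correlated more than any same-numbered pair. Deviations sum to 0 within a group, which pushes the values between numbers below 0. These correlations cannot settle whether libraries of 1 number belong together. The block was kept as an alternative.

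The members and lists were chosen with earlier results of these data known. Members named were the 3 highest and lowest in level in each subunit, the 4 largest log2 changes in each direction, those passing a test, those with extreme replicate share or variation, and some by role. Sums, ratios and counts over members are descriptions with no test. Protein sequences were not used here. Some genes are not reported here by name or drawn, though counts and sums over members include them.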

Additional observations from a re-analysis of the deposited data

How the results depend on the processing

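No member passed for hFGF19 under any alternative run, the replicate block, voom and leaving out libraries included. Members higher with hFGF19 numbered 60 to 75 and their median log2 change was 0.03 to 0.16 when 1 library was left out. With the replicate block 21 genes passed in all, and with voom and the block 41 (chosen after seeing the data); with 1 library left out 7 to 13 did, and without both libraries of number 1, 2, 3 or 4 (chosen after seeing the data) 6, 4, 10 and 9.

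The count for replicate number was the least stable. Over members and all genes it was 2 and 164 with a pseudocount of 0.1, 0 and 0 with no filter, 44 and 1171 at a mean of 5 FPKM, 42 and 1507 with voom, 3 and 263 with TPM, 5 and 265 with quantile normalization, and 1 and 246 without the treatment term. The members' share was below that of all genes without the treatment term (1.32% against 1.74%), without control library 2 (2.63% against 3.52%), and without hFGF19 library 1 or control library 1 (0 members). With 1 library left out it ran from 0 to 44 members and from 0 to 1095 genes. Without both libraries of number 1, 2, 3 or 4 it was 0, 12, 1 and 1 members and 0, 814, 13 and 66 genes. The cause was not tested.

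Scaled to TPM, the members summed to 85308 with hFGF19 and 80908 in controls. Without RPL19 the large over small ratio was 1.52 with hFGF19 and 1.53 in controls. A sum over members with no pseudogene row was not run, since RPL28 alone has none.

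Sign changes concerned no call. Scaled to TPM, the log2 change was -0.0023 for RPS21. After quantile normalization it was -0.031 for RPL11, 0.011 for RPL17, -0.036 for RPL5, -0.0046 for RPL6 and -0.029 for RPS6. With 1 library left out it ran from -0.050 to 0.079 for RPL11, from -0.083 to 0.12 for RPL17, from -0.055 to 0.0084 for RPL22, from -0.067 to 0.21 for RPL26, from -0.011 to 0.065 for RPL5, from -0.036 to 0.10 for RPS15A and from -0.084 to 0.16 for RPS21. Without both libraries of number 1 it was 0.13 for RPL17 and -0.0059 for RPS15A. Without number 3 it was -0.038 for RPL11, -0.10 for RPL26, -0.0050 for RPL5, -0.044 for RPS15A and -0.032 for RPS21, and without number 4 it was 0.032 for RPL17 and 0.026 for RPL22.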
